A study of Drosophila melanogaster with 3 samples.

Results

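The genes described here are 10 genes of lipid metabolism that the larval fat body is known to use: Hnf4, SREBP, ACC, FASN1, mdy, Lsd-1, Lsd-2, bmm, apolpp and Apoltp. They were chosen by name for their known function and not by a rule on measured values, but with earlier results of these data known. They are 10 of 13945 protein-coding genes on the 6 chromosome arms of the Drosophila melanogaster genome that were analysed. All 10 names matched a gene of the annotation. Whether the signal at them came from fat body cells could not be tested, because whole larvae were used and peak lists hold no expression values.

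The peaks are from chromatin immunoprecipitation followed by sequencing (ChIP-seq) of the zinc finger protein Noc in a transgenic line with GFP fused to the C terminus of noc. The antibody was directed against GFP, and the chromatin was from whole larvae, males and females together, to which the labels give an age of 48 days, copied here as given. The labels name 3 biological replicates of this 1 group, so no conditions were compared and no test between groups was possible. No untagged line was analysed here, and a peak is therefore not by itself proof that Noc was bound.

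The fat body of the larva combines tasks that mammals divide between liver and adipose tissue: it makes fatty acids, keeps them as triglyceride in lipid droplets and releases them to the blood. Transcription factors set the amounts of the enzymes, droplet coat proteins control the access of lipases, and lipoproteins carry the lipid to other organs. A ChIP-seq peak marks a stretch of DNA recovered more often than its surroundings, and its summit is the position of highest recovery within it.

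Each peak has a signal value given by the authors, on a scale not stated in the sources used here, by which peaks were ranked from 1, the strongest, within a list. The list used unless another is named holds the 7201 peaks that the authors kept by irreproducible discovery rate (IDR), which scores how well replicates agree on a peak. Its signal values ran from 217.6 to 7896.9, with a median of 364. The pooled list of the 3 libraries and the list of each replicate hold 30000 peaks each. For counts of genes, each replicate list was set to its 7201 strongest peaks. Ranks in the replicate lists are ranks among the 30000, and signal values of different lists are not on a shared scale.

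All 10 genes had an IDR summit in the gene body or within 2 kb to each side of it, a place where 42.1% of all protein-coding genes had one. The 10 genes held 39 IDR summits in 30 peak intervals that differ in start or end, since some intervals carry several summits. Some of these intervals overlapped, as at mdy and FASN1, so the separate regions were fewer. With the lists of the separate replicates, 10, 9 and 10 genes had such a summit, beside 42.8%, 40.6% and 42.1% of all genes. With the whole pooled list it was 10 of 10, beside 63.0%. The gene without a summit in the strongest peaks of replicate 2 was apolpp.

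Within 500 bp of a transcription start site, 7 of the 10 genes had an IDR summit, beside 24.5% of all protein-coding genes. The replicate lists gave 7, 7 and 8 genes, or 73.3% ± 5.77 (SD, n = 3), beside 25.4%, 23.3% and 24.7% of all genes. These were not the same genes throughout: Hnf4, ACC, FASN1, bmm and Apoltp were called in each replicate, mdy in replicates 1 and 2, Lsd-2 in 2 and 3, apolpp in 1 and 3 and Lsd-1 in 3 alone. The pooled list gave 9 genes, beside 45.4%. The 7 genes of the IDR list were Hnf4, ACC, FASN1, Lsd-1, bmm, apolpp and Apoltp. Lsd-1 and apolpp lost the call when replicate 1, 2 or 3 was left out and the other replicates had to hold the summit among their 7201 strongest, and ACC lost it without replicate 2 or 3, which left 5, 4 and 4 genes. Around this distance limit, ACC lay just inside with a summit at 438 bp, and SREBP lay just outside at 541 bp. The nearest IDR summits of mdy and Lsd-2 were at 702 and 1070 bp. Of the 10 genes, 9 are at least 4999 bp long and fall in the longest of 4 equal classes of gene length. In that class 33.7% of all genes had a summit at a start site and 57.5% in the body or flanks, and 6 of the 9 lipid genes had one at a start site.

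**Figure D1:**
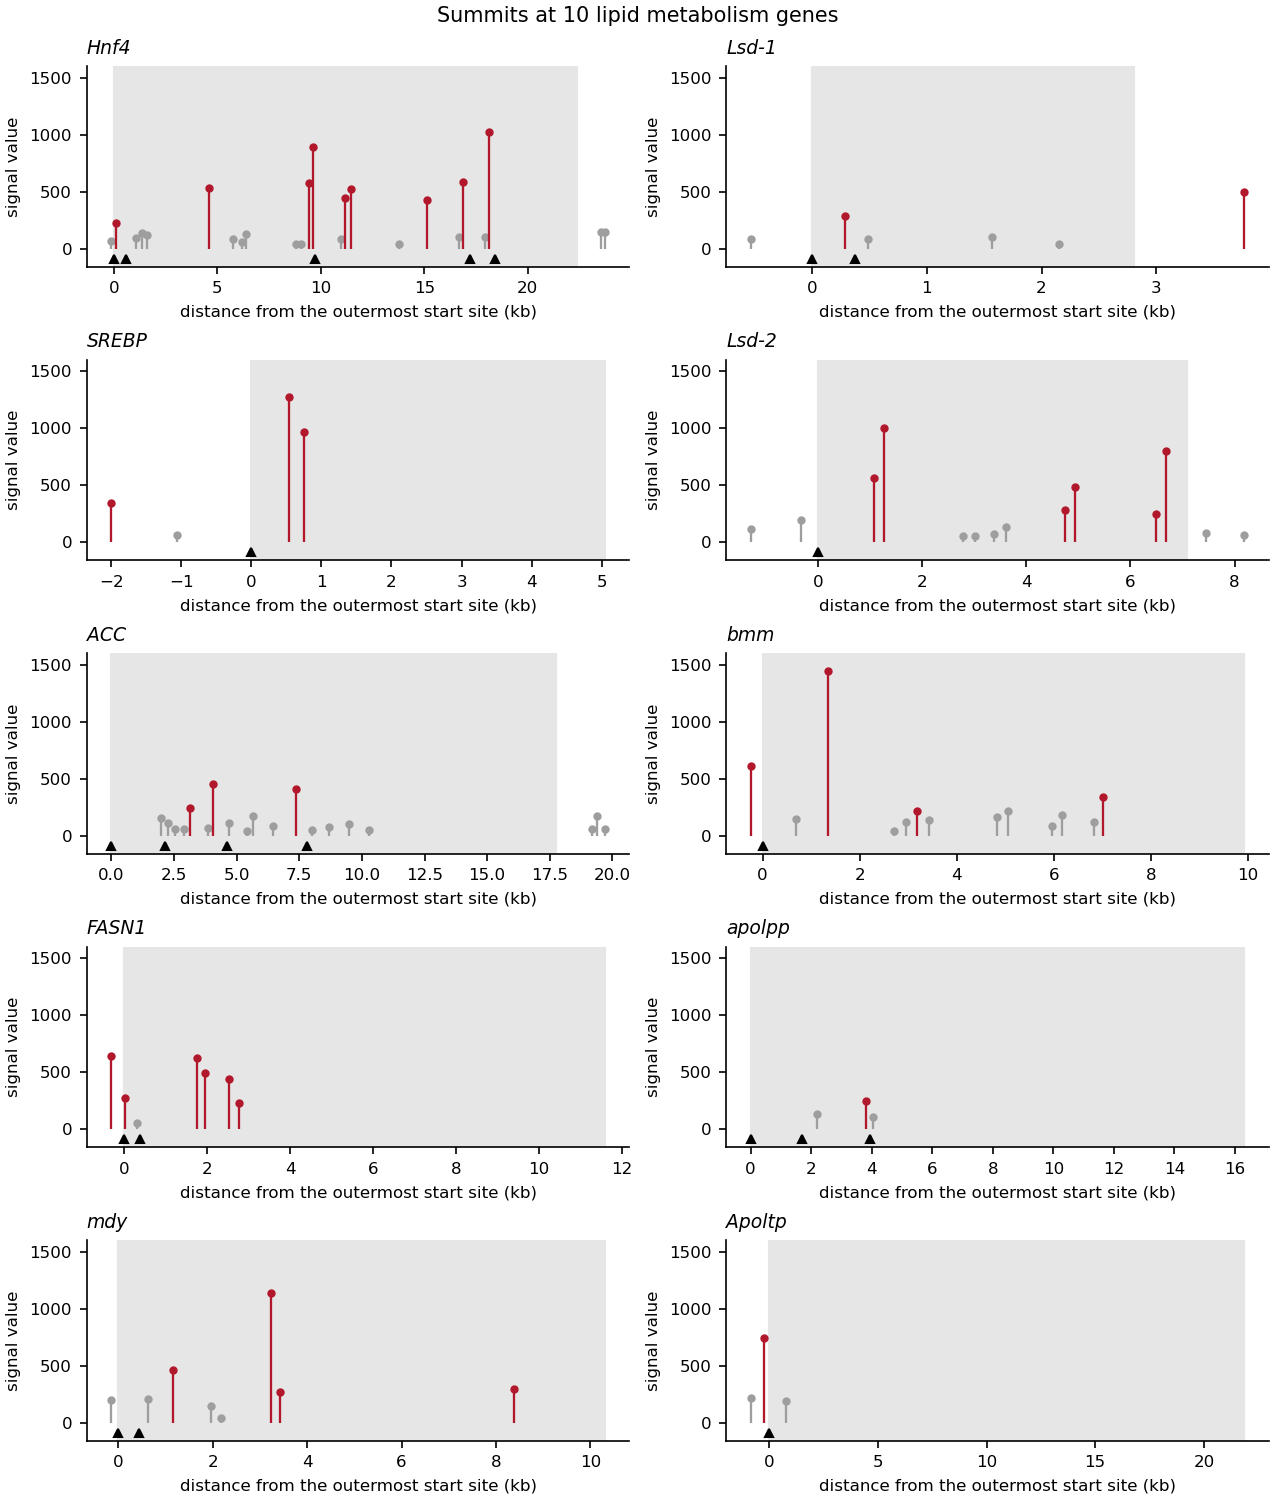
Summits along the 10 genes. The horizontal axis is the distance in kb from the outermost start site in the direction of transcription, and the vertical axis is the authors' signal value. Grey boxes are gene bodies, triangles are annotated start sites, red stems are IDR summits and grey stems are summits of the pooled list alone. Hnf4 holds 9 red stems, Apoltp and apolpp hold 1 each, and the highest stem, 1447.3, stands inside bmm.

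The summits away from a gene's own start sites were often its strongest ones. In 6 of the 10 genes, namely bmm, SREBP, mdy, Lsd-2, Lsd-1 and ACC, the strongest IDR summit lay over 500 bp from every start site of the gene itself. That of Lsd-1 was outside the gene, 92 bp upstream of CG10375, and so at a start site of another gene. For this count the share over all genes was not computed. In 5 of the 10 the strongest summit lay over 500 bp from the gene's own start sites and inside the gene. The same held for 13 of 50 other lipid genes with a summit (26%) and 1013 of 5874 protein-coding genes with one (17.2%). In SREBP and ACC it lay just past the limit, at 541 and 577 bp. Median gene length was 10942.5 bp for the 10 genes, 4901 bp for the 61 other lipid genes and 2166 bp for all protein-coding genes. The part of gene length in these shares was not tested. Of the 39 summits, 23 lay in intron 1 of at least 1 transcript, in 8 of the genes. Some of the 23, as at Hnf4, also lay within 500 bp of a start site. The share of all IDR summits in a first intron was not counted, so no excess can be read from this. By the place of the summit, 15 of the 39 (38.5%) were within 500 bp of a start site of any gene and 18 (46.2%) in introns elsewhere, while over all IDR summits these shares were 49.0% and 38.6%.

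Windows of 101 bp centred on summits are printed for the strongest summit of the 6 genes that lead the ranking, and for a summit in intron 1 of FASN1 that holds the only sterol regulatory element word among the 39 windows. They are from the plus strand of the dm6 assembly, 5′ to 3′, from the RefSeq copy of Release 6, and capitals mark the words searched for. The windows are chr3L:14785015-14785115 in intron 1 of bmm, chr3L:19794426-19794526 in an intron of SREBP, chr2L:16819837-16819937 in intron 1 of mdy and chr2L:8691449-8691549 upstream of an inner start site of Hnf4. The others are chrX:15074901-15075001 in intron 1 of Lsd-2, chr2L:9633896-9633996 upstream of Apoltp and chr2L:3058512-3058612 in intron 1 of FASN1.
bmm: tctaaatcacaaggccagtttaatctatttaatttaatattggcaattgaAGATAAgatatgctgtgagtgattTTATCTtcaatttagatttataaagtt
SREBP: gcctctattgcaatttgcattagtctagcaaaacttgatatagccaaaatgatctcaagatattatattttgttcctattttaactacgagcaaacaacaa
mdy: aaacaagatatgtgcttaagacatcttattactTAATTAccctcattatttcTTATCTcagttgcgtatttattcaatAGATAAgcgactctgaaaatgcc
Hnf4: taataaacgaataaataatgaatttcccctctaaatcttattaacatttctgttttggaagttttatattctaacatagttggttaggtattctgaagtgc
Lsd-2: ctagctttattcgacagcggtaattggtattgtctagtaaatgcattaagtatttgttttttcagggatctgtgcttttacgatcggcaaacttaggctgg
Apoltp: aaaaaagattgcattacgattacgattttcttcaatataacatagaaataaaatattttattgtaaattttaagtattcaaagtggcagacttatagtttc
FASN1: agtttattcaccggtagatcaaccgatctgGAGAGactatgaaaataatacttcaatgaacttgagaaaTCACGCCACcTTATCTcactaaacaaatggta
The bmm window holds the word AGATAA, a binding word of GATA factors, once on each strand (as AGATAA and TTATCT), and so does the mdy window, which also holds the homeodomain word TAATTA. The FASN1 window holds TCACNCCAC (a sterol regulatory element word), AGATAA on the minus strand and GAGAG. The other 4 windows hold none of the 10 words searched.

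The words were searched on both strands in the windows of all IDR summits. AGATAA was in 8 of the 39 windows at the lipid genes (20.5%), from 6 genes, and in 10.2% of all IDR windows. The related word TGATAA was in 2 of the 39 (5.13%) and in 13.5% of all. Either word was in 10 of the 39 (25.6%), from 7 genes, against 22.2% of all, so the pair together was near the level of the whole list. GAGAG, the word of the GAGA factor, was in 7 (17.9%) against 11.8%, and TAATTA was in 3 (7.69%) against 9.72%.

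The other words searched, those tied to lipid regulators among them, were rare. TCACNCCAC was in 1 of the 39 windows and in 0.194% of all IDR windows. AGGTCA, a nuclear receptor word, was in 1 of the 39 and 1.79% of all, and the forkhead word GTAAACA was in 1 and 3.47%. CAAAGTCCA (an HNF4 site), CACGTG (an E-box) and TATCGATA (the DRE word) were in none of the 39, and in 0.167%, 0.833% and 0.597% of all windows. None of this says whether a factor was bound, and 0 of 39 windows allows a share of up to 7.69%, counting error alone considered. The G and C content of the 39 windows was 39.1% ± 10.95 (SD over windows), against 36.5% ± 9.92 for all IDR windows.

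**Figure D2:**
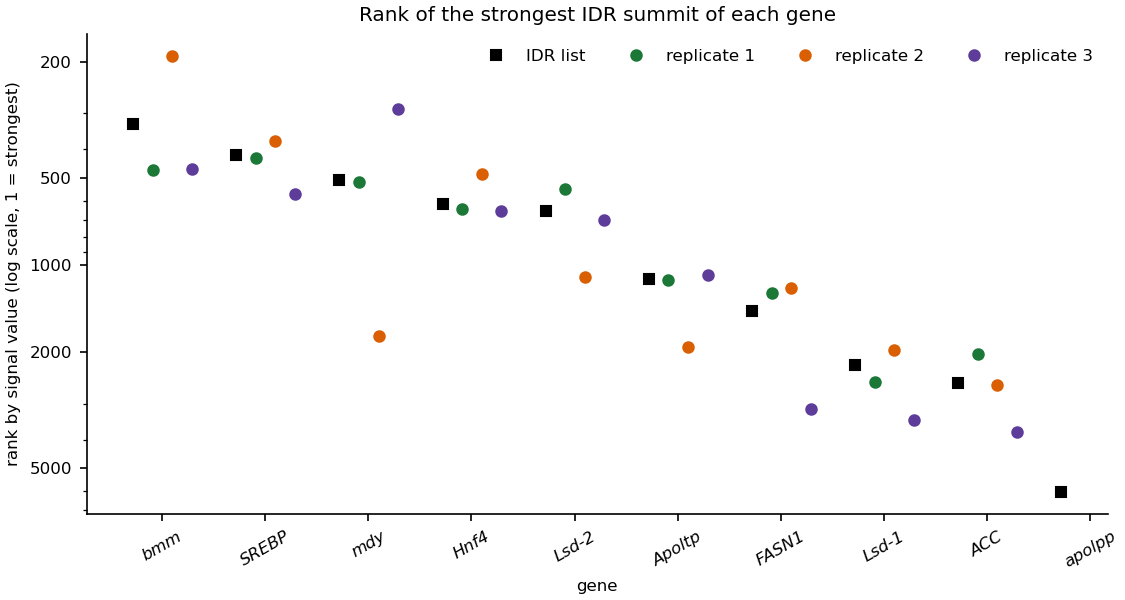
Rank of the strongest IDR summit of each gene. The vertical axis is the rank by signal value on a log scale, with 1 the strongest; squares are the IDR list and circles the matched summit within 100 bp in each replicate. The genes run from bmm at rank 327 to apolpp at rank 6072, which has no matched replicate summit, and mdy has the widest gap between replicates on this scale, from 291 to 1752.

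Hnf4 encodes a nuclear receptor that in larvae promotes the release and oxidation of stored fat. It spans chr2L:8687226-8709611 on the minus strand, with 5 transcripts that each start at a site of their own. It had the most IDR summits of the 10 genes: 9, with 10, 7 and 8 in the replicates (8.33 ± 1.53, SD, n = 3). Among the 1395 protein-coding genes of its length decile, 5.09% had 9 or more. The high count is therefore found in few genes of that decile, which is the longest and has no upper limit of length.

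The strongest summit of Hnf4 had a signal of 1025.4 (rank 618) and lay 290 bp upstream of an inner start site. In replicates 1, 2 and 3 it had signals of 417, 355.5 and 373 and ranks of 640, 485 and 649, close to each other. Another inner start site had a pair of summits 90 and 301 bp upstream, with signals of 888.5 and 579.1 (ranks 803 and 1715), and a further one had a summit of 582.3 at 329 bp upstream. The weakest summit of the gene, 225.4 (rank 6907), was the one 81 bp downstream of the outermost start site. It was also the nearest IDR summit, at 488 bp, of the inner start site beside that one, so the stronger peaks lay at 3 of the 4 inner start sites. The pair at 90 and 301 bp shared an interval of 710 bp, and replicate 2 had a match for the farther summit alone.

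Between these start sites Hnf4 had 4 further summits, with signals from 429.6 to 529.9. A pair of them, 1480 and 1762 bp downstream of a start site, shared an interval of 835 bp. A summit of 529.9, 4001 bp downstream of a start site, lay in an exon of the antisense gene asRNA:CR44992 and in intron 1 of Hnf4. It varied most between the replicates in rank: 2391, 8151 and 769. The nearest start site of another gene was that of CatB, 531 bp away. ChIP-seq does not separate the strands, so the summit cannot be assigned to 1 of these 3 genes.

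SREBP encodes a membrane-bound transcription factor that, once cleaved, activates genes of fatty acid synthesis. It spans chr3L:19793935-19798979, with 1 start site for its 4 transcripts. It had 3 IDR summits, and the replicates gave 3, 1 and 2 (2.00 ± 1.00, SD, n = 3). No list had a summit within 500 bp of its start site. The strongest summit, 1273.8 (rank 417), lay 541 bp downstream, in an intron. Its signals in the replicates were 524.6, 403.4 and 397.8, at ranks 427, 375 and 568, so it stood high in each of them.

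The neighbouring summit of SREBP, 964.3 (rank 695), lay 752 bp downstream of the start site in the 5' UTR, within the same interval of 965 bp. It was matched at ranks 876 and 968 in replicates 1 and 3 and not in replicate 2. That interval reaches the start site, so the gene counted as having a start-site peak when any base of the interval decided. The remaining summit, 339.8, was 1998 bp upstream, near the edge of the flank. It lay in an intron of another gene, and its rank in replicate 2 was 8302.

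ACC encodes acetyl-CoA carboxylase, which makes malonyl-CoA, the first committed step of fatty acid synthesis. The gene spans chr2R:7974115-7991862 on the minus strand and has 4 start sites. It had 3 IDR summits, and 4, 3 and 3 in the replicates (3.33 ± 0.577, SD, n = 3); 33.9% of genes in its length decile had as many. The number was thus common in that decile. The strongest had a signal of 450.5 (rank 2549), with 220.1, 122.9 and 143.8 in the replicates, and lay 577 bp upstream of a start site. The summit that set the start-site call had a signal of 405.9 (rank 3006), 438 bp upstream of another start site, with 91.8, 85.8 and 166.3 in the replicates. The third summit of ACC, 240.1, lay 191 bp inside Nup44A, a nucleoporin gene on the opposite strand, and 991 bp from the nearest ACC start site.

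FASN1 encodes a fatty acid synthase, which builds long-chain fatty acids from malonyl-CoA. It spans chr2L:3056598-3068177 and has 2 start sites. The gene had 6 IDR summits, and 6, 4 and 6 in the replicates (5.33 ± 1.15, SD, n = 3), a number reached by 3.44% of genes in its length decile. They formed 2 groups, at the start and in intron 1. At the start, the strongest summit lay 301 bp upstream with a signal of 639.1 (rank 1440), and another of 272.0 lay 23 bp downstream. The upstream summit had signals of 294.9, 209.1 and 159.5 in the replicates, at ranks 1249, 1199 and 3142.

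The intron 1 group of FASN1 was a single interval of 1637 bp with 4 summits, from 1368 to 2371 bp downstream of the inner start site. Their signals were 620.2, 494.7, 442.1 and 226.3, in order along the gene. Replicates 1 and 3 had all 4 summits, and at the first of them they ranked it 1126 and 784. Replicate 2 ranked the first summit 5032 and the second 19260 and had no match for the last pair, so this interval was weaker there. The second of the 4 is the summit whose window holds the sterol regulatory element word printed above.

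The gene mdy (midway) encodes a diacylglycerol acyltransferase, which completes triglyceride. It spans chr2L:16816660-16826964 and had 4 IDR summits, with 4, 3 and 3 in the replicates (3.33 ± 0.577, SD, n = 3). None was within 500 bp of either start site. The strongest had a signal of 1134.0 (rank 511) and lay in intron 1, 2779 bp downstream of the inner start site. Its signals were 470.3, 161.5 and 546 in the replicates, at ranks 516, 1752 and 291, the widest spread in rank, taken as a ratio, among the strongest summits of these genes.

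Next to it, a summit of 265.0 had no match in replicate 2, and a summit of 457.2 lay 702 bp downstream of the inner start site with nearly even signals of 148.1, 158.5 and 155.1. The last of the 4, 290.7, lay 159 bp inside the neighbouring gene Cse1, a nuclear export receptor gene on the opposite strand. Both mdy start sites had a pooled summit, at 147 and 176 bp, with ranks of 7913 and 7743. These are just below the 7201 peaks of the IDR list. Replicates 1 and 2 had a start-site summit among their own 7201 strongest peaks, at ranks 6874 and 5156.

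Lsd-1 and Lsd-2 encode the perilipins of the fly, proteins of the lipid droplet surface. Lsd-1 takes part in hormone-driven lipolysis and Lsd-2 shields stored fat. Lsd-1, at chr3R:23763857-23766662, is the shortest of the 10 genes and had 2 IDR summits, with 1, 1 and 3 in the replicates (1.67 ± 1.15, SD, n = 3). The summit at its own start sites had a signal of 288.8 (rank 4974) and lay 90 bp upstream of the inner one. Its signals in the replicates were 90.98, 30.4 and 156, at ranks 7690, 15227 and 3271, so replicate 3 alone had it among its 7201 strongest peaks. The other summit, 492.6 (rank 2216), lay downstream of the gene, 92 bp upstream of CG10375 and 132 bp upstream of CG10214. Its assignment to Lsd-1 therefore rests on the flank of 2 kb.

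Lsd-2, at chrX:15069127-15076220 on the minus strand, had 6 IDR summits, and 7, 4 and 7 in the replicates (6 ± 1.73, SD, n = 3); 3.44% of genes in its length decile had as many. With 5.41 summits per 10 kb of body and flanks, it was the densest of the 10 by count of summits. Its 6 summits lay in 3 peak intervals, and density by interval was not computed. The strongest, 996.8 (rank 649), lay in intron 1, 1269 bp downstream of the only start site. Its signals were 455.8, 220.6 and 359.7 in the replicates, at ranks 548, 1101 and 701. The summit beside it, 563.6, was ranked 1067 and 3610 in replicates 1 and 3 but 28396 in replicate 2, near the end of that list.

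Of the 6 Lsd-2 summits, 4 lay in its 3' UTR, a class with 91 summits in all, or 1.26% of the IDR list. They formed 2 pairs, and the strongest of them, 798.8 (rank 988), was ranked 784, 2831 and 622 in the replicates. The partner of this summit and the stronger summit of the other pair had no match in replicate 2. No other gene of the 10 had an IDR summit in a 3' UTR. At the start site itself, the nearest pooled summit was 334 bp upstream with a signal of 194.7 (rank 8238), below the range of the IDR list.

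The gene bmm (brummer) encodes the main triglyceride lipase of the fat body. It lies at chr3L:14776496-14786412 on the minus strand and had 4 IDR summits, with 5, 5 and 6 in the replicates (5.33 ± 0.577, SD, n = 3). Its strongest summit was the strongest of the 10 genes, 1447.3 (rank 327), and lay in intron 1, 1347 bp downstream of the start site. The replicates gave signals of 494.6, 558 and 438.4 and ranks of 470, 190 and 467, so all 3 placed it among their 470 strongest peaks. Replicate 2 placed it highest.

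The start-site summit of bmm, 608.6 (rank 1573), lay 245 bp upstream of bmm and 134 bp upstream of Tdrd3, which is transcribed in the other direction. It had signals of 155.4, 239.1 and 148.7 in the replicates, at ranks 3601, 967 and 3544. Both genes share this summit, and it is nearer to Tdrd3. The remaining summits, 340.1 and 217.9, lay 7018 and 3178 bp inside the gene, and the latter is just above 217.6, the lowest signal of the IDR list. AGATAA was in the windows of 3 of the 4 bmm summits, all but the one of 340.1.

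The transport genes apolpp and Apoltp had 1 IDR summit each, the fewest of the 10, although both are among the longer genes. The gene apolpp encodes the structural apolipoproteins of lipophorin, the main lipid carrier of the blood, and Apoltp encodes the apolipoprotein of the lipid transfer particle that loads it. In their length decile 61.5% of genes had 1 summit or more, so having a summit was common there.

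Apoltp, at chr2L:9634179-9656026, had a clear summit 233 bp upstream of its only start site, with a signal of 743.7 (rank 1121). Its signals in the replicates were 309.3, 153.3 and 282.4, at ranks 1128, 1913 and 1079. No start site of another gene lay near it, the closest being 8661 bp away. The replicates had 2, 1 and 3 summits at the gene (2.00 ± 1.00, SD, n = 3). The pooled list added summits of 213.5 and 187.9, at 847 bp upstream and 782 bp downstream, both below the IDR range.

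The summit of apolpp, 249.7 (rank 6072), was below the strongest summit of every other gene of the 10, and it was the only one of the 39 with no replicate summit within 100 bp. The nearest summits of replicates 1, 2 and 3 were 105, 133 and 114 bp away. The position thus missed the matching distance narrowly in each replicate, and peaks of 2 replicates covered it. It lay 111 bp upstream of an inner start site of apolpp, which spans chr4:1060969-1077273, and 206 bp inside Zyx, the zyxin gene on the opposite strand. Chromosome 4 had 5 IDR peaks and 22 pooled peaks in all, and 4 of its 80 protein-coding genes (5.00%) had an IDR summit at a start site. The replicates had 1, 0 and 2 summits at apolpp (1.00 ± 1.00, SD, n = 3).

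**Figure D3:**
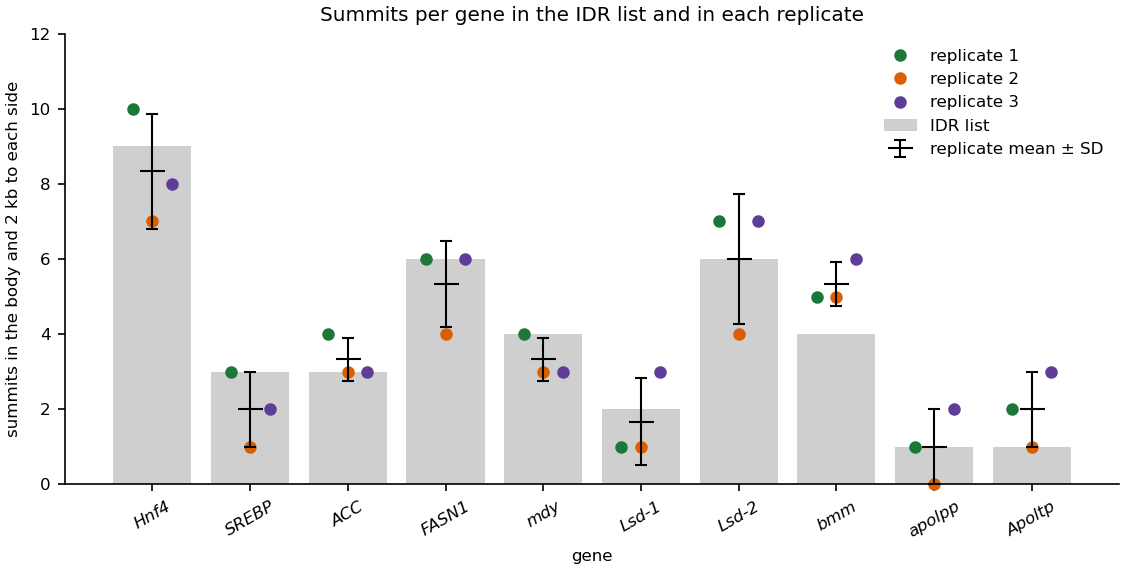
Summits per gene, flanks of 2 kb included. Bars are counts in the IDR list, circles are counts in the 7201 strongest peaks of each replicate, and the horizontal marks with whiskers are the replicate mean ± SD (n = 3). Hnf4 is highest in the IDR list with 9, FASN1 and Lsd-2 follow with 6 each, and replicate 2 is the lowest or shares the lowest count in all 10 genes.

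Of the 39 summits, 29 (74.4%) had a summit within 100 bp in each of the 3 replicate lists, 9 had one in 2 replicates and 1 in none. Over all IDR summits the share found in each of the 3 was 78.6%, that is 5663 of 7201. At this matching distance the share at the lipid genes was thus near that of the whole list. By replicate, 97.4%, 74.4% and 97.4% of the 39 were matched, against 95.7%, 85.8% and 94.3% of all IDR summits. The lipid genes thus had the lower share in replicate 2. All 9 summits that were found in 2 replicates lacked replicate 2. Most of them lay in intervals that carried several summits, as at FASN1 and Lsd-2. In all, 32 of the 39 lay under a peak of each of the 3 replicates. The same share over all IDR summits is not given here, so this count has no comparison.

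In relation to the nearest start site of the gene itself, 13 of the 39 summits lay upstream and 26 downstream, and 12 lay within 500 bp. For these counts the shares over all IDR summits were not computed, so no excess can be read from them. The window searched holds the whole gene body, which lies downstream of the outermost start site. The 10 genes have 22 distinct start sites. Of these, 13 had an IDR summit within 500 bp, beside 24.0% of the 19607 start sites of all protein-coding genes, and 19 had a pooled summit, beside 47.2%. In strength, 26 of the 39 were among the 3600 strongest IDR peaks. Over the whole list that cut takes 3600 of 7201 peaks by definition. The median signal of the strongest summit was 870.3 for the 10 genes, 717 for the other lipid genes with a summit and 471.6 for all protein-coding genes with one. The medians of gene length, 10942.5, 4901 and 2166 bp, followed the same order, and so did those of the number of summits where there was any, 3.5, 3 and 1. The part of gene length in these medians was not tested.

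Other genes of lipid metabolism, in 7 lists, gave a similar share: 43 of 61 (70.5%) had an IDR summit at a start site, from 43 distinct summits. The share of all protein-coding genes was 24.5%. These lists too were chosen with earlier results of these data known, so they are not independent support. The replicates gave 42, 38 and 41 (66.1% ± 3.41, SD, n = 3) and the pooled list 50, beside 45.4% of all genes in the pooled list. In the body or flanks 50 of the 61 had an IDR summit, beside 42.1%. In the longest of the 4 length classes, 22 of 30 of these genes had one at a start site, beside 33.7%. The median signal of their strongest start-site summit was 520.4.

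For fatty acid synthesis the count was 6 of 9 genes (6, 5 and 6 in the replicates), beside ACC and FASN1. Desat1, a fatty acid desaturase, had the highest start-site signal there, 1050.3 (rank 591), followed by AcCoAS, which makes acetyl-CoA, at 965.7. For triglyceride and phospholipid synthesis it was 10 of 12 (10, 9 and 10), beside mdy, which had no IDR summit at a start site. The highest were Agpat4, an acyltransferase, at 1682.6 (rank 224) and Lpin, the lipin phosphatase that makes diacylglycerol, at 1612.4 (rank 251). Both exceeded every summit at the 10 genes.

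For lipolysis it was 3 of 4 (3, 3 and 3), led by the lipase gene Lip3 at 842.5 and by puml at 633. For fatty acid oxidation, the mitochondrial and peroxisomal breakdown of fatty acids, it was 9 of 10 (8, 6 and 9). Mcad, an acyl-CoA dehydrogenase of this pathway, had 1396.7 (rank 354), and yip2, a thiolase, had 501.2. Oxidation had the largest share of the 7 lists in the IDR list alone. Over the replicates it had 76.7% ± 15.3 (SD, n = 3), below the 80.6% ± 4.81 of triglyceride and phospholipid synthesis, and in the pooled list it had 9 of 10, against 12 of 12 for that synthesis list and 4 of 4 for lipolysis.

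For lipid transport and uptake it was 6 of 10 (6, 7 and 5), with the lipophorin receptor gene LpR2 at 969.5 and Mtp, which loads lipid onto lipoproteins, at 603.3. For hormonal and transcriptional regulators it was 9 of 13 (9, 8 and 8). The insulin-regulated transcription factor gene foxo led at 1314.1 (rank 390), and ERR, a nuclear receptor gene, had 1020.2. SREBP processing was the exception. SCAP, S1P and S2P, whose products escort and cleave SREBP, had none at a start site in any list, 0 of 3, and SCAP alone had an IDR summit in its body or flanks. With 3 genes, a count of 0 sets no useful limit on the share.

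**Figure D4:**
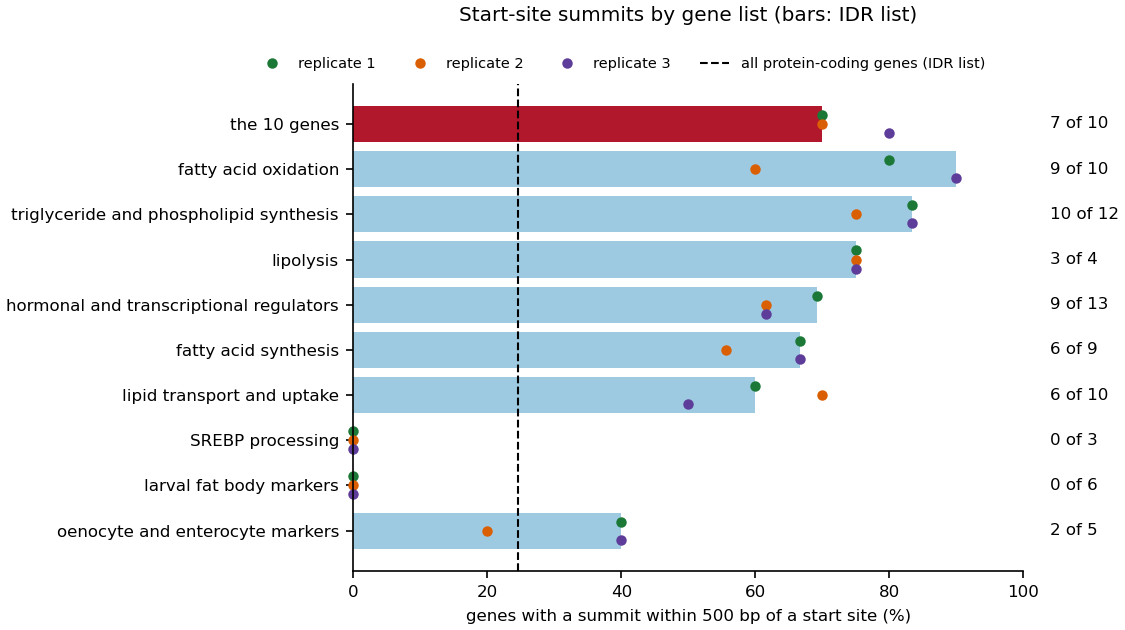
Share of genes with a summit within 500 bp of a start site, in percent, for the 10 genes (red), 7 lists of other lipid genes and 2 lists of cell type markers (blue). Bars are the IDR list, circles the 7201 strongest peaks of each replicate, and the dashed line is the share of all protein-coding genes, 24.5%. The 10 genes stand at 7 of 10, fatty acid oxidation at 9 of 10, and SREBP processing and the larval fat body markers at 0.

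Genes that mark the larval fat body were also counted. Of 6 such genes, the storage protein genes Lsp1alpha, Lsp1beta, Lsp1gamma and Lsp2 and the fat body protein genes Fbp1 and Fbp2, none had an IDR summit at a start site, and none had one among the strongest peaks of a replicate, beside 24.5% of all genes in the IDR list. A count of 0 of 6 allows a share of up to 50%. In the body or flanks 2 of the 6, Lsp2 and Fbp1, had 1 IDR summit each, beside 42.1% of all genes. In the pooled list 1 of the 6 had a start-site summit and 5 had one in the body or flanks, beside 45.4% and 63.0%, so the count for bodies depended on the list. Of 5 marker genes of oenocytes and enterocytes, other cells that handle lipid in the larva, 2 had an IDR summit at a start site, beside 24.5% of all genes. The replicates gave 2, 1 and 2, and the pooled list 4, beside 45.4%. The genes with an IDR summit there were Myo31DF at 286.3 and Jon65Ai at 282.8, both low in the list. Cyp4g1, mex1 and lambdaTry had no IDR summit at a start site or in the body or flanks. Cyp4g1 had none in the pooled list either. A peak at or away from a marker gene says nothing of its expression, and the tissue in which the lipid genes carried their summits cannot be told apart in whole larvae.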

How the data were processed

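Peaks came from 3 ChIP-seq libraries of whole larvae, whose chromatin was sonicated to between 200 and 800 bp, as the labels state. Text notes deposited with the lists say that every replicate list rests on the alignment of its own library and 1 further file, which the notes do not describe and which was not analysed here. The pooled list rests on the 3 libraries and the same file, and the IDR list was derived from the other 4. The aligner and the peak caller, with its settings, were not given in the sources used here. Each peak has a score, the signal value deposited by the authors, which served to order and describe peaks of 1 list at a time. Summits are the peak start plus the deposited offset. The 7201 IDR peaks were checked to be the strongest of the 30000 pooled ones. Peak lists hold no read totals, so the depth is unknown here.

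Coordinates are 1-based on dm6, per the labels, and peak positions were checked against the chromosome lengths. Genes and start sites came from Ensembl release 115 and sequences from RefSeq Release 6. Python 3.11.15, numpy 2.4.6, pandas 2.3.3 and matplotlib 3.10.9 were used, and the counting functions were tested on simulated data. Genes were counted by summits up to 500 bp from a start site, or in the body with flanks of 2 kb. Replicate lists were set to their 7201 strongest peaks for counts and used whole for matches within 100 bp. Each summit was classed by place: promoter first, then UTRs, other exons, introns and intergenic sequence. The lists of other lipid genes held 62 names, of which 61 were found in the annotation. In each list the genes named are those with the 2 highest start-site signals, and at the 10 genes also any gene with a start site nearer to a start-site summit or within 500 bp of a strongest summit. Nup44A, Cse1, asRNA:CR44992, CatB, Lsp2, Fbp1, SCAP, Cyp4g1, mex1 and lambdaTry are named in addition, after their values were seen. The 10 genes and the lists were chosen with earlier results of these data known, so no set test was made. Alternatives were other distances, flanks and lists, and leaving out each replicate.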

Additional observations from a re-analysis of the deposited data

How the results depend on the processing

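Of the 10 lipid genes, 4 to 5 rather than 7 had an IDR summit at a start site when a replicate was left out and both others had to hold a summit within 100 bp among their 7201 strongest, and the share of all genes fell too, to between 14.8% and 18.6%. Lsd-1 and apolpp were lost whichever replicate was left out, and ACC without replicate 2 or 3; the left-out library had still entered the pooled call. Hnf4, FASN1 and Apoltp were kept under every alternative run, and bmm under all but the one that gives a summit to its nearest start site, where Tdrd3 is nearer. That alternative, chosen after seeing the data, gave 6 of the 10 and 41 of the 61 other lipid genes. Other distances, lists and the use of the whole peak interval gave 5 to 9 genes, and the share of all genes moved with them, from 14.9% for the 3600 strongest peaks (5 genes) to 28.6% at 1000 bp and 45.4% for the pooled list (9 genes each). Of the 39 summits, 12 matched all 3 replicates within 50 bp and 37 within 250 bp, beside 29 within 100 bp. The shares of all IDR summits at 50 and 250 bp are not given here, so the comparison with the whole list holds for 100 bp only. The count of the 10 genes with a summit in the body or flanks was 9 or 10 under each alternative, while the share of all genes ran from 18.0% (gene body alone) to 63.0% (pooled list). No paired analysis was possible because there is 1 group.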
